A study of Ovis aries with 6 samples.

Results

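The genes described here encode 4 acyltransferases on the route to triacylglycerol, GPAM, GPAT4, AGPAT2 and DGAT1, and seipin, the product of BSCL2. They were taken by symbol, looked up by RefSeq accession with the version ignored. Every row of the deposited table named in this way as 1 of these 5 genes was kept. That gave 8 of 49705 transcripts, 4 of them from GPAM and 1 from each other gene. Only 31.9% of the rows received a symbol, so further transcripts of these genes may stand unnamed among the rest. A transcript was tested where its mean over the 6 libraries was at least 1 RPKM (reads per kilobase of transcript, scaled to the number of mapped reads of the library), and 6 of the 8 were, among 15891 tested in all. The 2 that were not tested are transcripts of GPAM.

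RNA came from milk somatic cells, which hold mammary epithelial cells and leukocytes, of 3 Comisana ewes at about day 90 of lactation. The linseed group was 3 libraries, 1 from each ewe, after 3 weeks on a concentrate with 20% extruded linseed in its dry matter, fed with grass and hay. The control group was 3 libraries of the same ewes, which had received grass hay and a commercial concentrate for 3 weeks before that, and milk was taken at the start and the end of the experiment. Every ewe received linseed second, so diet and time of sampling cannot be told apart, and cells pelleted from 250 ml of milk were used whole, with no sorting.

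Linseed is an oilseed rich in alpha-linolenic acid, a polyunsaturated fatty acid. Triacylglycerol, the main fat of milk, is built on glycerol 3-phosphate at the endoplasmic reticulum and the outer mitochondrial membrane. A GPAT enzyme adds the first fatty acid, an AGPAT enzyme the next, a lipin removes the phosphate, and a DGAT enzyme adds the last fatty acid. The finished fat buds into lipid droplets, and seipin sits where droplets join the endoplasmic reticulum. In the lactating mammary gland the droplets leave the epithelial cell as milk fat globules, while leukocytes keep lipid droplets as an inner store.

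AGPAT2, GPAT4 and BSCL2 stood at higher levels in all 3 linseed libraries than in any control library, by 5.08-fold, 2.55-fold and 5.28-fold in mean RPKM. Of all tested transcripts, 13.3% likewise lay above every control library. DGAT1 differed in the same direction by 1.44-fold, though its sign turned under a scaling without milk proteins. The summed level of the GPAM transcripts was lower with linseed, at 0.394 of the control mean. The changes without the sheep in the fit did not pass limma's adjusted p of 0.05 for any of the 6 tested transcripts. With the sheep as a block, which compares the diets within each ewe, AGPAT2 passed and the other 5 did not. Over all tested transcripts, 1.28% passed as higher in that fit and 1.34% as lower. The plot of RPKM by library shows these levels side by side.

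**Figure D1:**
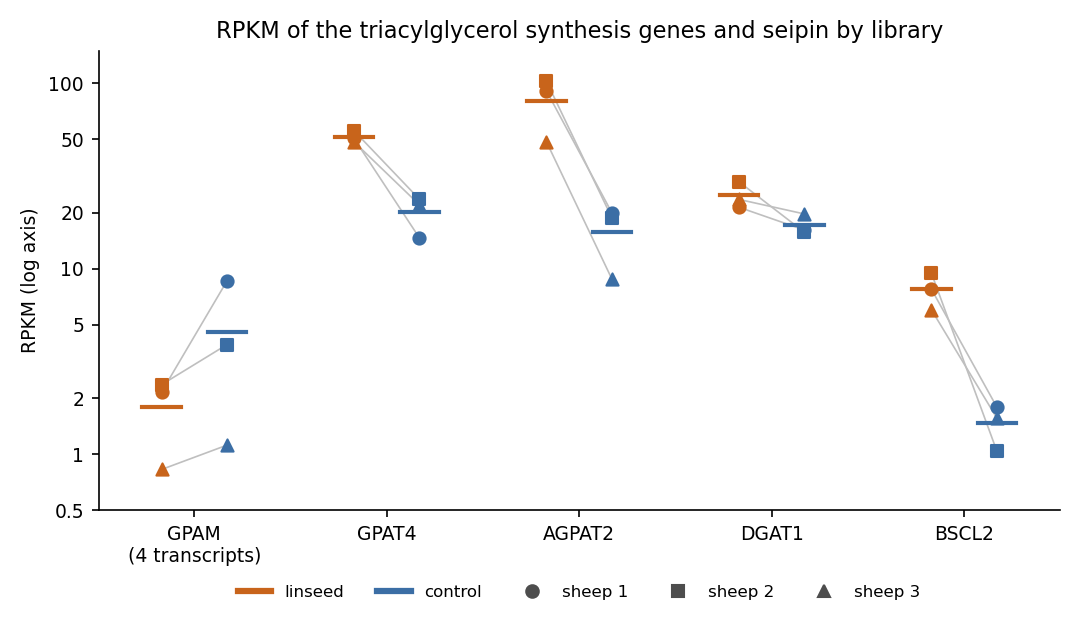
RPKM on a log axis for each of the 5 genes, with linseed libraries in orange on the left of each pair and control libraries in blue on the right; marker shape gives the sheep, grey lines join the libraries of 1 sheep and short bars are group means (n = 3). GPAM is the sum of its 4 transcripts. Linseed libraries lie above all control libraries for GPAT4, AGPAT2, DGAT1 and BSCL2, and overlap them for GPAM, on RPKM as deposited. They lie above all control libraries for 13.3% of all tested transcripts.

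GPAT4 and GPAM encode enzymes of the same step, the first acylation of glycerol 3-phosphate, at the endoplasmic reticulum for GPAT4 and at mitochondria for GPAM. In mice, loss of Gpat4 depletes milk fat. GPAT4 (XM_004021798.3, 3765 nt) had 50.5, 55.5 and 48.4 RPKM in linseed sheep 1, 2 and 3, against 14.7, 23.7 and 22.1 RPKM in control sheep 1, 2 and 3. The linseed libraries lay close together, and the groups did not overlap. The mean was 51.4 ± 3.66 RPKM with linseed and 20.2 ± 4.83 RPKM in controls (SD, n = 3 each). The ratio of linseed over control RPKM within a sheep was 3.44, 2.34 and 2.19 in sheep 1, 2 and 3. On the log2(RPKM + 1) scale, which understates the change of low transcripts, the fitted change was 1.33 ± 0.57 (SE; 95% interval 0.09 to 2.58). The adjusted p given by limma was 0.301, or 0.137 in the blocked fit. These values rest on 8734 reads over the 6 libraries, the most of any of the 8 transcripts. The read numbers were solved from the steps between low RPKM values, as described with the processing.

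GPAM was spread over 4 transcripts of 6437 to 6765 nt that differ little in length. Summed over them, GPAM had 2.17, 2.37 and 0.827 RPKM in linseed sheep 1, 2 and 3, against 8.61, 3.90 and 1.12 RPKM in control sheep 1, 2 and 3. The linseed value was the lower one in each ewe, yet the groups overlapped, because control sheep 3 was lower than linseed sheep 1 and 2. The mean was 1.79 ± 0.839 RPKM with linseed and 4.54 ± 3.79 RPKM in controls (SD, n = 3 each), and the SD of the controls was larger than the difference. Control sheep 1, the deepest library at 22644050 reads, held 1281 of the reads of GPAM, while no other library held more than 225. These read numbers follow library depth as well as level. The fitted change of the sum was -0.78 ± 0.66 (SE), with an adjusted p of 0.555 in limma.

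The 4 GPAM transcripts differed in pattern. The most abundant, XM_012102927.2, had 1.57, 1.53 and 0.060 RPKM with linseed in sheep 1, 2 and 3, against 3.84, 1.49 and 0.691 RPKM in controls. XM_012102929.2 had 0.314, 0.364 and 0.577 RPKM with linseed, against 3.85, 2.01 and 0.088 RPKM in controls. In sheep 3 these transcripts differed in opposite directions between the diets, on 8 and 74 reads with linseed and 49 and 6 reads in the control. XM_012102927.2 made up 72.6%, 64.3% and 7.26% of the GPAM level in linseed sheep 1, 2 and 3, against 44.6%, 38.3% and 61.8% in control sheep 1, 2 and 3. The fitted changes were -0.52 ± 0.59 (SE) for XM_012102927.2 and -0.83 ± 0.58 for XM_012102929.2, with adjusted p of 0.67 and 0.478 in limma. The untested XM_012102928.2 had 0.123 to 0.359 RPKM with linseed and 0.159 to 0.379 RPKM in controls. The untested XM_012102926.2 had no read in linseed sheep 1, where 3 reads would be 0.0897 RPKM, up to 0.124 RPKM in the other linseed libraries, and 0.101 to 0.542 RPKM in controls. How reads that fit several transcripts of a gene were counted is not given in the sources used here, so the split between the 4 is uncertain.

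AGPAT2 adds the next fatty acid, making phosphatidate from lysophosphatidate. Loss of AGPAT2 in humans leaves almost no adipose tissue, as does loss of seipin. AGPAT2 (XM_015094112.1, 1340 nt) had 91.1, 102.6 and 48.4 RPKM in linseed sheep 1, 2 and 3, against 20.0, 18.8 and 8.80 RPKM in control sheep 1, 2 and 3. Sheep 3 was the lowest of its group under both diets, and the lowest linseed value was above the highest control value. The mean was 80.7 ± 28.6 RPKM with linseed and 15.9 ± 6.17 RPKM in controls (SD, n = 3 each). Within a sheep the ratio of linseed over control RPKM was 4.54, 5.45 and 5.50, so the ewes differed more in level than in ratio. The fitted change on the log2(RPKM + 1) scale was 2.28 ± 0.62 (SE; 95% interval 0.91 to 3.65), and 98.5% of tested transcripts had a smaller one. Its adjusted p in limma was 0.263. With the sheep as a block the SE was 0.54 and the adjusted p 0.0457, and AGPAT2 rose in that fit, in 3 of 3 sheep. Of the 14 blocked fits run, 4 called AGPAT2, with adjusted p from 0.0210 to 0.328 over the 14. The blocked adjusted p was 0.0210 without sheep 1, 0.193 without sheep 2 and 0.0356 without sheep 3. The transcript was read 603, 822 and 1291 times in linseed sheep 1, 2 and 3 and 608, 222 and 125 times in control sheep 1, 2 and 3.

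DGAT1 closes the route by joining the last fatty acid to diacylglycerol, and mice without Dgat1 fail to lactate. DGAT1 (NM_001110164.1, 1470 nt) had 21.5, 29.5 and 23.7 RPKM in linseed sheep 1, 2 and 3, against 16.2, 15.8 and 19.8 RPKM in control sheep 1, 2 and 3. The groups did not overlap, but linseed sheep 1 lay close above control sheep 3, and their exact 95% counting intervals of 18.2 to 25.1 and 17.6 to 22.1 RPKM overlapped. The mean was 24.9 ± 4.13 RPKM with linseed and 17.2 ± 2.20 RPKM in controls (SD, n = 3 each). The fitted change was 0.50 ± 0.56 (SE; 95% interval -0.73 to 1.72), with an adjusted p of 0.667 by limma, or 0.563 in the blocked fit. When the 6 milk protein genes were left out of the total reads, the change was 0.28. When they were left out of the summed RPKM to which libraries were scaled, it was -0.06. That scaling moved the median change of all tested transcripts to -0.51, against -0.12 on RPKM as deposited. Relative to those medians, the change of DGAT1 was 0.44 with milk proteins left out and 0.62 as deposited. In the RefSeq annotation DGAT1 overlaps SCRT1, which was listed at 0 RPKM in every library but linseed sheep 3 (0.0431 RPKM), and the library kit does not mark strand.

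Seipin, encoded by BSCL2, is a protein of the endoplasmic reticulum that shapes lipid droplets as they form and makes no fat itself. The measured transcript (XM_012102047.1, 1745 nt) had 7.77, 9.49 and 6.01 RPKM in linseed sheep 1, 2 and 3, against 1.80, 1.04 and 1.57 RPKM in control sheep 1, 2 and 3. The groups lay far apart for their spread, at 7.76 ± 1.74 RPKM with linseed and 1.47 ± 0.387 RPKM in controls (SD, n = 3 each). The ratio of linseed over control RPKM was 4.32, 9.11 and 3.84 in sheep 1, 2 and 3, and the widest rested on 16 reads in control sheep 2, with an exact 95% counting interval of 0.595 to 1.69 RPKM. The fitted change was 1.82 ± 0.55 (SE; 95% interval 0.62 to 3.02), with an adjusted p of 0.263 in limma. With the block the adjusted p was 0.0579, and in the blocked fit without sheep 3 it was 0.0399. The RefSeq table used for names lists 14 transcripts of BSCL2, of which this 1 was matched, so other forms of the gene are not analysed here. BSCL2 overlaps GNG3 in that annotation, whose level is not analysed here either.

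**Figure D2:**
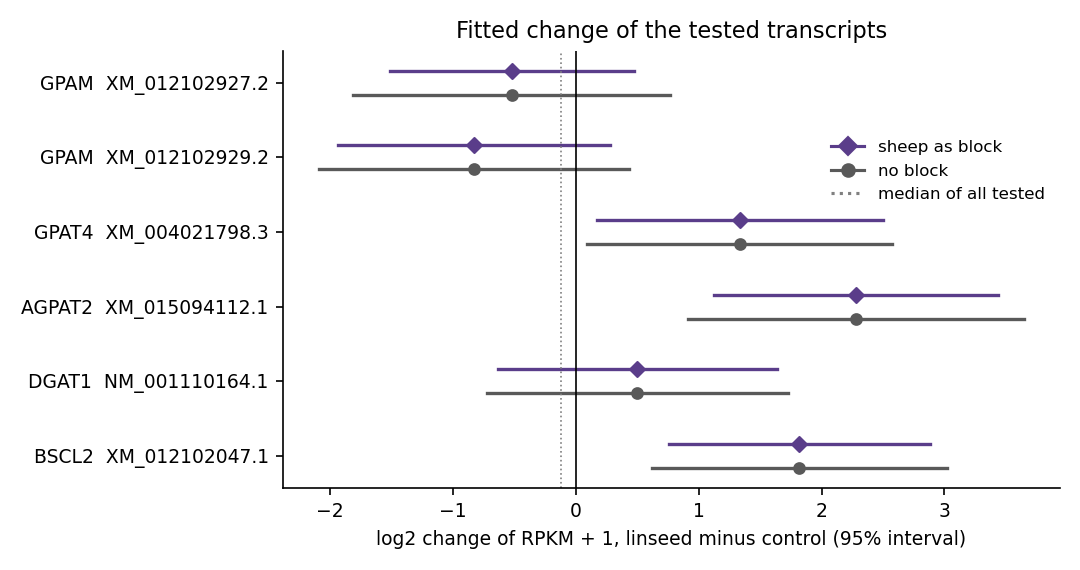
Fitted log2 change of RPKM + 1 (linseed minus control) with 95% intervals for the 6 tested transcripts, in limma with the sheep as a block (purple diamonds) and without it (grey circles); the dotted line is the median of all tested transcripts. Intervals for GPAT4, AGPAT2 and BSCL2 lie above 0 in both fits before adjustment, and those for GPAM and DGAT1 span 0.

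Set against all tested transcripts, 4 of the 6 had linseed values above every control value, where 13.3% of all did, and the same 4 were higher in all 3 sheep, where 23.0% of all were. The count called higher without the block was 0 of 6, and 0% over all transcripts, with a smallest adjusted p of 0.263. Neither fit called any of the 6 lower, and over all transcripts 1.34% were called lower with the block and 0% without it. At an unadjusted p under 0.05, 3 of the 6 were higher in limma without the block, where 8.50% of all were, and 0 were lower, where 7.00% of all were. The same 3, GPAT4, AGPAT2 and BSCL2, were past that threshold with the block, where 12.7% of all were higher and 14.3% lower. None of the 6 was lower in all 3 sheep, where 26.2% of all were. With the block 1 of the 6 was called higher, where 1.28% of all were, or 203 transcripts. That number was 107 without sheep 1, 96 without sheep 2 and 982 without sheep 3. It was 0 in 7 of the 14 blocked fits: a pseudocount of 0.1, no filter, a mean of at least 5 RPKM, quantile normalization, TMM factors, a length trend removed, and voom on solved reads. The median change of the 6 was 0.92 and that of all tested transcripts -0.12. The members were chosen with earlier results of these data known, so these counts describe them and do not set them apart.

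RPKM is per length, so levels of different genes can be ranked within a library, here by their matched transcripts alone. The RefSeq table used for names lists 14 transcripts of BSCL2, 9 of GPAM, 5 of GPAT4, 4 of DGAT1 and 1 of AGPAT2. Of these, 4 were matched for GPAM and 1 for each other gene. Forms that were not matched are missing from the ranks, shares and ratios that follow. With linseed the order was the same in each ewe: AGPAT2, GPAT4, DGAT1, BSCL2 and GPAM. In linseed sheep 3 AGPAT2 and GPAT4 both stood at 48.4 RPKM. In controls the order varied, with AGPAT2 leading in sheep 1 and GPAT4 in sheep 2 and 3, and the group ranges of GPAT4, AGPAT2 and DGAT1 overlapped. GPAM stood above BSCL2 in control sheep 1 and 2 and below it in control sheep 3.

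As a share of the summed RPKM of the 5 genes, a measure that no scaling of a library can change, AGPAT2 made up 52.7%, 51.5% and 38.0% in linseed sheep 1, 2 and 3, against 32.7%, 29.8% and 16.5% in control sheep 1, 2 and 3. BSCL2 made up 4.66% ± 0.145 with linseed and 2.50% ± 0.743 in controls (SD, n = 3 each). Both were larger with linseed in every ewe. DGAT1 had the smaller share with linseed, at 15.3% ± 3.12, against 29.5% ± 6.60 in controls, and GPAM 1.03% ± 0.331 against 7.44% ± 6.07 (SD, n = 3 each). GPAT4 made up 31.7% ± 5.53 with linseed and 34.3% ± 9.19 in controls, a difference smaller than either SD, and its share was larger with linseed in sheep 1 and smaller in sheep 2 and 3. The 5 genes summed to 166.6 ± 36.5 RPKM with linseed and 59.3 ± 5.23 RPKM in controls (SD, n = 3 each).

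**Figure D3:**
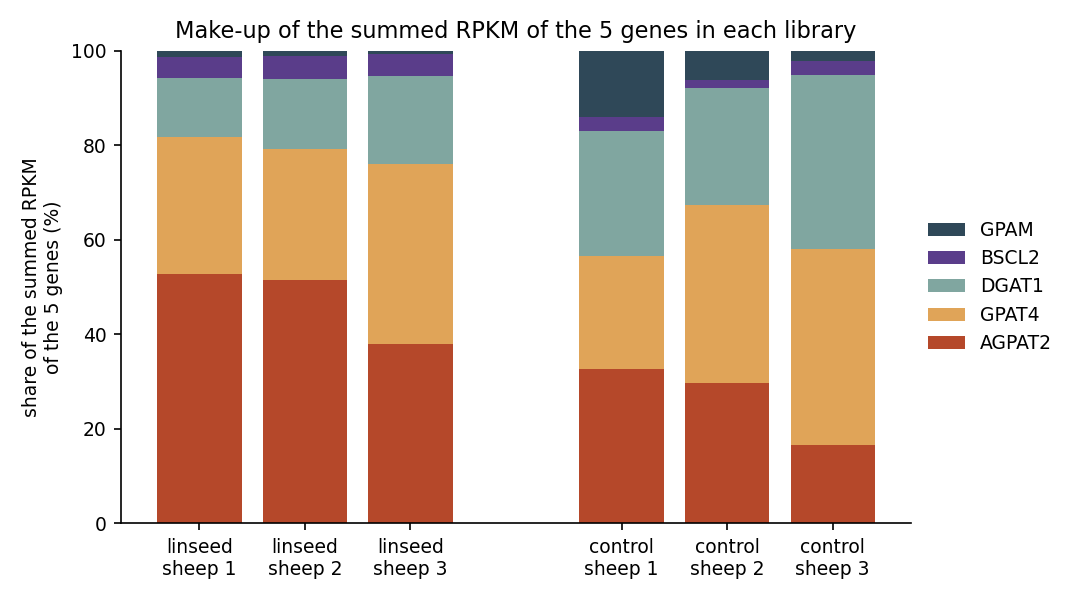
Share of each gene in the summed RPKM of the 5 genes, in percent, with 1 stacked bar per library, linseed libraries on the left and control libraries on the right. AGPAT2 takes 38.0% to 52.7% of the sum in linseed libraries and 16.5% to 32.7% in control libraries, and GPAM reaches 14.0% in control sheep 1.

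Ratios between members within a library do not depend on library scaling either. Shares and ratios still compare transcripts of unlike length, so a library effect tied to length could shift both. With a length trend removed, the log2 change was 1.65 for GPAT4, 2.01 for AGPAT2 and -0.01 for GPAM XM_012102927.2. On RPKM as deposited these changes were 1.33, 2.28 and -0.52. GPAT4 over GPAM in RPKM was 23.3, 23.4 and 58.5 in linseed sheep 1, 2 and 3, against 1.70, 6.07 and 19.8 in control sheep 1, 2 and 3. AGPAT2 over DGAT1 was 4.24, 3.48 and 2.04 with linseed, against 1.24, 1.19 and 0.445 in controls. Both ratios were larger with linseed in every ewe, and neither overlapped between the groups. AGPAT2 over GPAM and GPAT4 over DGAT1 did not overlap either. AGPAT2 over GPAT4 did overlap, at 1.00 to 1.85 with linseed and 0.398 to 1.37 in controls. AGPAT2 over BSCL2 overlapped as well, at 8.04 to 11.7 with linseed and 5.61 to 18.1 in controls. How often ratios of other gene pairs overlap was not tested.

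The other measured genes of the route lay on both sides of 0 in their changes. Of 36 further genes listed for the supply of its building blocks, its other enzymes, lipid droplets and milk fat secretion, 21 were matched to a transcript and 16 were tested by their most abundant one. None of the 16 was called by limma, with the block or without it, where 203 transcripts were called higher and 213 lower over all with the block and 0 without. At an unadjusted p under 0.05 the list had 0 without the block, and 1 higher and 2 lower with it. Of the 16, 8 had a positive change and 8 a negative one, with a median of 0.000443 against -0.12 for all tested transcripts. In all 3 sheep, 3 were higher (AGPAT1, LPIN3 and CIDEA) and 2 lower (BTN1A1 and XDH), where 23.0% and 26.2% of all tested transcripts were.

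Of the 3 lipins, LPIN3 had the smallest p among listed genes with a positive change in the fit without the block; with the block that gene was CIDEA. LPIN3 had 4.51, 3.93 and 4.03 RPKM in linseed sheep 1, 2 and 3, against 1.90, 1.50 and 2.31 RPKM in control sheep 1, 2 and 3, with no overlap (log2 change 0.84 ± 0.53 SE; adjusted p = 0.438 in limma). With the block its SE was 0.48 and its adjusted p in limma 0.268. LPIN1 had a change of -0.70 ± 0.57 and LPIN2 of 0.17 ± 0.74. AGPAT1, which shares the reaction of AGPAT2, was higher with linseed in 3 of 3 sheep by 0.44 ± 0.69 on the log2 scale. AGPAT3 had 0.922, 4.33 and 27.4 RPKM with linseed, against 3.13, 0.840 and 5.58 RPKM in controls. Its change of 0.85 ± 0.92 was below its error without the block, and the SE with the block was 0.61.

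The lipid droplet and secretion genes split. CIDEA, a droplet protein that promotes droplet fusion and lipid secretion in the mammary gland of mice, had 141.4, 84.7 and 14.3 RPKM in linseed sheep 1, 2 and 3, against 32.8, 33.3 and 9.77 RPKM in control sheep 1, 2 and 3 (log2 change 1.30 ± 0.87 SE; adjusted p = 0.462 in limma). With the block its SE was 0.57 and its adjusted p in limma 0.162. The droplet coat gene PLIN2 had a change of -0.60 ± 0.60. Butyrophilin (BTN1A1) and xanthine dehydrogenase (XDH), which coat the milk fat globule as it leaves the epithelial cell, were lower with linseed in every ewe. BTN1A1 had 44.4, 50.6 and 8.38 RPKM with linseed, against 165.5, 74.9 and 52.8 RPKM in controls, with a change of -1.65 ± 0.78 and an adjusted p of 0.337 in limma. XDH had 49.1, 43.5 and 3.38 RPKM with linseed, against 89.6, 69.6 and 53.1 RPKM in controls, with a change of -1.72 ± 0.89 and an adjusted p of 0.367. In the blocked limma fit the SE was 0.59 for BTN1A1 and 0.65 for XDH, with adjusted p of 0.103 and 0.120. The ranges of BTN1A1 and XDH did not overlap between the groups, as for 7.83% of all tested transcripts in that direction.

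**Figure D4:**
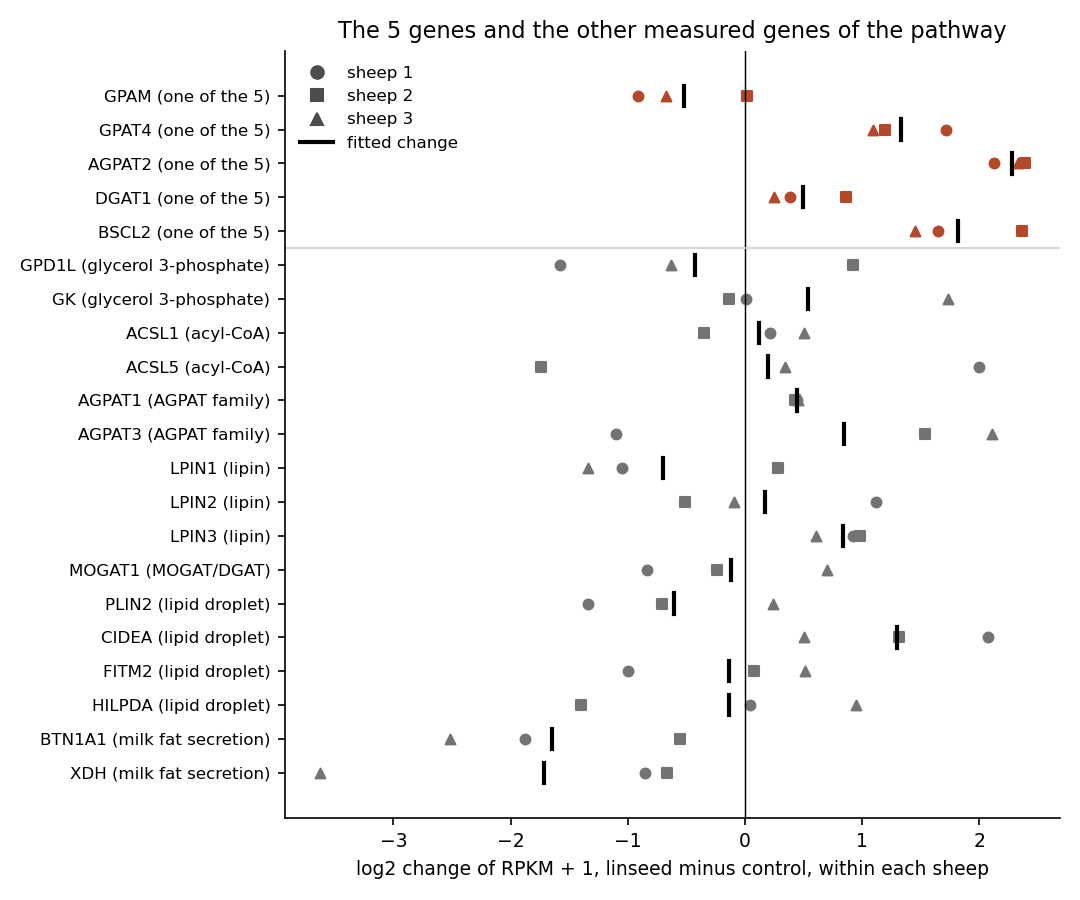
Change of log2(RPKM + 1), linseed minus control, within each sheep (markers) and as fitted (black bars) for the most abundant transcript of each of the 5 genes (red, above the line) and of the 16 other tested genes of the pathway list (grey). All 3 sheep lie above 0 for GPAT4, AGPAT2, DGAT1 and BSCL2, which were chosen with earlier results of these data known. Of the 16 other genes, 11 have sheep on both sides of 0. AGPAT1, LPIN3 and CIDEA lie above 0 in all 3 sheep, and BTN1A1 and XDH below. Over all tested transcripts, 23.0% lie above 0 in all 3 sheep and 26.2% below.

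The tested genes whose log2(RPKM + 1) followed the most abundant transcript of each member most closely over the 6 libraries differed between members. For GPAM, whose 4 transcripts differed in pattern, that transcript had 8 reads in linseed sheep 3. Among 5975 other genes, those nearest to AGPAT2 by Pearson's r were CAVIN3, a caveola protein gene (0.994), JPT1 (0.992) and NAGK, an N-acetylglucosamine kinase gene (0.991). The genes nearest to GPAT4 were ACBD6, an acyl-CoA binding protein gene (0.997), GNPTG, which helps to tag lysosomal enzymes (0.996), and SH3BGRL3 (0.996). Nearest to BSCL2 were PINX1, RBM42 and ACAA1, a thiolase gene of peroxisomal fatty acid oxidation, at 0.989 to 0.996. For DGAT1 they were SMIM19, ASPRV1 and KDM8, at 0.984 to 0.990. Near to GPAM were RHBDL2 and ARHGEF37, each at 0.988. Among the members, AGPAT2 had an r of 0.93 with BSCL2 and 0.86 with GPAT4, and GPAM -0.04 with AGPAT2 and -0.51 with GPAT4. The 6 libraries share 3 ewes and 2 diets, so these values describe likeness alone.

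Markers of the cell types that milk can hold were summed as well. In RNA from a mixture of cells, fewer cells of a type and less RNA per cell cannot be told apart. The summed level of the 3 measured of 8 neutrophil markers, S100A8, S100A9 and CXCR2, was 2010 to 3146 RPKM with linseed and 418 to 745 RPKM in controls, and each was higher in 3 of 3 sheep. S100A8 and S100A9 made up most of that sum. CXCR2 overlapped between the groups, at 4.03 to 9.78 RPKM with linseed and 0.098 to 7.99 RPKM in controls. The sum of the 6 measured of 10 macrophage markers was 776 to 1369 RPKM with linseed and 90.7 to 550 RPKM in controls. CD68 and TREM2 made up most of that sum. Of the 6, 3 (CD68, C1QA and TREM2) were higher and 1 (MRC1) lower with linseed in 3 of 3 sheep. CD14 was higher with linseed in sheep 1 and lower in sheep 2 and 3, and MARCO was near 0 throughout. As for GPAT4, AGPAT2, DGAT1 and BSCL2, neither sum overlapped between the groups, where 13.3% of all tested transcripts lay above every control value. The part of these cells in the changes of the 4 genes was not tested.

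The sum of the 5 measured of 10 mammary epithelial markers was 82.7 to 695 RPKM with linseed and 379 to 563 RPKM in controls. Of the 5, EPCAM, CD24 and ELF5 were lower with linseed in every sheep. KRT8 made up most of the sum in linseed sheep 1 and 2, at 354.9, 499.95 and 21.3 RPKM in linseed sheep 1, 2 and 3, against 17.6, 98.6 and 54.5 RPKM in control sheep 1, 2 and 3. The 6 milk protein genes summed to 12457 to 344411 RPKM with linseed and 40181 to 430968 RPKM in controls. That sum was lowest in sheep 3 under both diets, as for AGPAT2 and GPAM. CSN1S1, CSN1S2, CSN2 and CSN3 were lower with linseed in every sheep, while PAEP and LALBA were higher in sheep 1 and 2 and lower in sheep 3. PAEP had 268127, 140693 and 4634 RPKM in linseed sheep 1, 2 and 3, against 64305.5, 51089 and 9885 RPKM in controls. The 6 measured of 8 T and NK cell markers summed to 55.9 to 120 RPKM with linseed and 7.04 to 505 RPKM in controls, and the 5 B cell markers to 5.61 to 17.6 RPKM and 0.501 to 8.19 RPKM. The 3 measured of 6 adipocyte markers, ADIPOQ, PLIN1 and CIDEC, summed to 0.0963 to 0.137 RPKM with linseed and 0.127 to 0.299 RPKM in controls, near 0 throughout. No measured marker was at 0 in all 6 libraries. The part of epithelial, milk protein and lymphocyte levels in the values of the 5 genes was not tested.

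Library totals, solved from the RPKM values, were 4941935 to 19912996 reads with linseed and 8805705 to 22644050 reads in controls. Milk protein transcripts took 1.25% to 29.5% of the reads of linseed libraries and 4.24% to 47.0% of control libraries. In the 95% counting intervals only counting error is covered, and each read is taken as independent. Where both mates of a read pair were counted, the intervals are too narrow. By level, AGPAT2 stood above 88.8% to 95.3% of tested transcripts in linseed libraries and above 59.2% to 87.4% in control libraries. BSCL2 stood above 56.5% to 73.9% with linseed and 14.6% to 40.2% in controls, and those ranges did not overlap either. DGAT1 stood above 80.9% to 87.3% with linseed and 77.6% to 84.9% in controls.

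**Figure D5:**
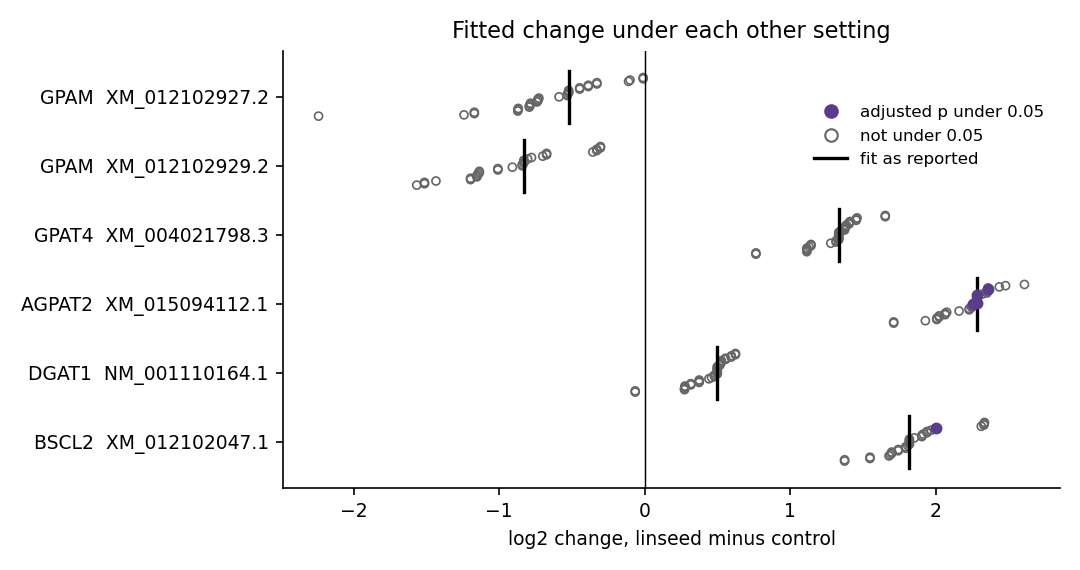
Fitted log2 change (linseed minus control) of each tested transcript under every other setting run, with 1 circle per setting, filled where the adjusted p was under 0.05, and a black bar for the fit without the block. AGPAT2 spans 1.71 to 2.61, BSCL2 1.37 to 2.34 and GPAT4 0.77 to 1.65, and DGAT1 reaches -0.06.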

How the data were processed

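The authors deposited 1 table of RPKM values for 49705 RefSeq transcripts in 6 libraries. The submitters' processing notes name Trimmomatic 0.33 for read trimming. An aligner, a counter or a genome build is not given in the sources used here. Letters C and L in the sample titles were read as the normal and linseed diets of the series design. Gene symbols were looked up by accession without its version in RefSeq genes (ARS-UI_Ramb_v3.0), for names alone, and 15836 transcripts (31.9%) matched. Because low values are spaced by what 1 read is worth, library totals, transcript lengths and reads could be solved (tolerance 0.002 reads); solved reads summed to 99.4% to 99.8% of the totals. Log2(RPKM + 1) values were fitted, for transcripts averaging 1 RPKM or more, with limma 3.58.1 in R 4.3.3 (mean-variance trend, Benjamini-Hochberg adjustment over 15891 transcripts, adjusted p under 0.05 called). The same animal identifier stands under the same number in both groups, so the sheep pair the libraries; the 2 libraries of a ewe deviated from their group means together, with r of 0.18, 0.25 and 0.40 in sheep 1, 2 and 3, while linseed sheep 2 with control sheep 1 had 0.24 and the other 5 unmatched pairs -0.40 to 0.07. Residual degrees of freedom are 4 unblocked and 2 blocked. Solving and fits were also run on simulated data with independent noise, no ewe effect and no set difference in milk protein share. That run cannot check how the fits behave with paired libraries or with such differences in share. Named genes were all transcripts of the 5 genes, the 3 genes nearest in pattern to each (1 of them is not reported here), and up to 3 listed pathway genes of smallest p in each direction; PLIN2, LPIN2 and AGPAT1 were added after their values were seen. The members and lists were chosen with earlier results of these data known. The deposited table holds RPKM and no counts, and the planned quasi-likelihood count test was not run on the solved reads. Of count methods, voom was run on them.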

Additional observations from a re-analysis of the deposited data

How the results depend on the processing

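The sign of the change held for GPAT4, AGPAT2, BSCL2 and both tested GPAM transcripts under every setting that could fit them. The sheep as a block turned AGPAT2 into a call (2.28), as it did with the transcripts of a gene summed (2.28), without sheep 1 (2.36) and without sheep 3 (2.26), while the other 10 blocked fits did not call it; BSCL2 was called in the blocked fit without sheep 3 (2.01). The block changed no other call of a member. With milk proteins left out of the summed RPKM, DGAT1 had -0.065 with and without the block. With them left out of the total reads it had 0.28 in both fits. Without the block, 0 transcripts were called in either direction under any setting; with it, 203 were called higher and 213 lower, 224 and 228 with transcripts summed, 41 and 155 when total reads excluded milk proteins, 267 and 1739 when the summed RPKM excluded them, 107 and 145 without sheep 1, 96 and 77 without sheep 2, 982 and 1018 without sheep 3, and 0 in both directions in the other 7 blocked fits (pseudocount 0.1, no filter, mean of at least 5 RPKM, quantile normalization, TMM factors, length trend removed, voom). The pathway list had 2 calls in the blocked fit with milk proteins left out of the summed RPKM and 1 in that without sheep 1, and its median ran from -0.38 to 0.40. Leaving out 1 library or 1 sheep gave 1.93 to 2.61 for AGPAT2, 1.55 to 2.01 for BSCL2, 1.13 to 1.46 for GPAT4, 0.32 to 0.62 for DGAT1, and -0.87 to -0.10 and -1.51 to -0.30 for GPAM. The change of GPAM XM_012102927.2 was -0.01 with a trend on transcript length removed (0.03 above the median of all tested) and -2.24 by voom on solved reads; the causes were not tested. At a mean of at least 5 RPKM, BSCL2 and GPAM were not tested. Joint settings with the block, and milk proteins left out of the summed RPKM, were chosen after seeing the data. BSCL2 in controls (16 to 71 reads) and GPAM (6 to 581 reads for the tested transcripts) are limited by depth.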
